A study of Mus musculus with 8 samples.

Results

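The nuclear genes for the respiratory chain and ATP synthase were followed here in cells sorted from mouse colon. The labels name these cells enteric neurons, the neurons of the gut's own nervous system. Members were chosen by gene symbol: every gene named as a numbered Ndufa, Ndufb, Ndufc, Ndufs or Ndufv subunit (with Ndufab1), as Uqcr, as Cox4 to Cox8 or as Atp5, plus Cyc1 and Cycs, without the 14 names marked as pseudogenes by -ps. The rule found 90 of the 55414 genes in the table: 43 of complex I, 9 of complex III, 19 of complex IV, 18 of ATP synthase, and cytochrome c. Of these, 85 were protein coding and 4 were processed pseudogenes that carry an ordinary symbol (Ndufa11b, Ndufb4c, Ndufs6b, Cox6c2). Ndufb1 was annotated as a noncoding transcript from a shared promoter. Atp5o appeared under 2 identifiers, 1 of which had no count.

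The 2 groups were mice labelled WT and mice labelled Emb knockdown, both 4 weeks old, with 4 libraries each. Emb encodes embigin, a membrane glycoprotein that accompanies monocarboxylate transporters. The sources used here do not give the strain, the way Emb was knocked down or the cells in which that acted. In both groups colon cells were released with enzymes, stained for CD24 and CD56 and sorted into tubes of about 250 cells. Whether a tube stands for 1 mouse is not said in the labels, and p-values therefore measure only the spread between these libraries, which may be technical.

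Complex I takes electrons from NADH, complex III passes them to cytochrome c, and complex IV hands them to oxygen. All 3 complexes pump protons, and ATP synthase uses the resulting gradient to make ATP. Most subunits are encoded in the nucleus, while a small core set is encoded by mitochondrial DNA, and neurons are known to rely strongly on this pathway. Nuclear respiratory factor 1 (NRF1), ETS-family factors such as GABP, YY1 and SP factors are known to bind many promoters of these genes.

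Member promoters held some of these factors' letters more often than promoters at large. RefSeq promoter sequence on GRCm38.p6, from 250 bases before to 50 bases after the gene's start, was matched for 69 of the 90 members. The NRF1 core GCGCANGCG was found on either strand in 18 of the 69 (26.1%), against 6.48% of all 27025 promoters. The ETS core CCGGAAG was found in 14 (20.3% against 9.16%) and the YY1 motif AAGATGGCG in 6 (8.70% against 1.49%). The SP motif GGGCGG was closer to the background, in 29 (42.0% against 36.0%). Member promoters also held a median of 19 CG dinucleotides, against 7 in all promoters, and the part of base composition in these shares was not tested. Of the 85 coding members, 22 (25.9%) had a coding gene starting on the opposite strand within 1000 bp or with up to 300 bp of overlap, against 8.64% of coding genes.

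The promoters below belong to 4 members described below and were picked after the values were seen. Whether the motifs have a part in the values was not tested. Capitals mark matches to the motifs above, on either strand. By log2 fold change Cox7a2l and Ndufa11 were higher in Emb knockdown and Atp5l was lower, while Cox6a1 was high in scattered libraries. None was called by edgeR, and the groups of Ndufa11, Atp5l and Cox6a1 overlapped. The windows lie at chr17:83514284-83514583 (minus strand) for Cox7a2l, chr17:56717512-56717811 (plus strand) for Ndufa11, chr9:44920693-44920992 (minus strand) for Atp5l and chr5:115348909-115349208 (minus strand) for Cox6a1. The RefSeq start of Cox7a2l lay 2997 bp from the outermost GENCODE start.
Cox7a2l: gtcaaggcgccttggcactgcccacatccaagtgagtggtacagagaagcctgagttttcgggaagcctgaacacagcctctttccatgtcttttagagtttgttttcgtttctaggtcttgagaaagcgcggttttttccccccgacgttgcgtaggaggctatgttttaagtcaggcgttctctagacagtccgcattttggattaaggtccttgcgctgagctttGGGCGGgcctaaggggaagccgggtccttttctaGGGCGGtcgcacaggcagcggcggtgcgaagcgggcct
Ndufa11: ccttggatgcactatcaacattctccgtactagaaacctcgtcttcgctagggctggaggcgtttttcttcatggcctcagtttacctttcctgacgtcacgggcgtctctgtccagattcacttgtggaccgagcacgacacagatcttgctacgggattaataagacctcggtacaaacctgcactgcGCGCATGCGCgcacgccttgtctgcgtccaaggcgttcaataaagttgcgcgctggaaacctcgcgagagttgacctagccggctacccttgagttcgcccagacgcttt
Atp5l: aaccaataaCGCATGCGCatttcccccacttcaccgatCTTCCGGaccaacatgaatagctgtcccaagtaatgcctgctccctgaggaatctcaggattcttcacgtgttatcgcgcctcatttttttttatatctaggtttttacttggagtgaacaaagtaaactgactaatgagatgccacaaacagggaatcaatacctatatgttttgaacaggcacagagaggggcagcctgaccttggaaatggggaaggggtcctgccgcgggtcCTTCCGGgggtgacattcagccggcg
Cox6a1: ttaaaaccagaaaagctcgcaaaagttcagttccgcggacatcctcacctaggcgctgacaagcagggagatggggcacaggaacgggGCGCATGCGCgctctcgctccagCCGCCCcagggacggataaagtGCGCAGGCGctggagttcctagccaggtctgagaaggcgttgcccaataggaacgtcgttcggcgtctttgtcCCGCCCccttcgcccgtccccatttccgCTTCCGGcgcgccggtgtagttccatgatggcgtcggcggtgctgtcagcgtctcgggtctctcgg

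The libraries differed between the groups in ways that touch every member. WT libraries held 698930 to 954191 counts and Emb knockdown libraries 2024372 to 2712754. The ribosomal RNA gene Rn18s-rs5 took 8.72% ± 4.00 of the counts of the WT libraries against 36.5% ± 5.53 in the other group (SD, n = 4 each). For Emb itself the WT libraries gave 4, 6, 22 and 16 counts and the Emb knockdown libraries 5, 25, 3 and 5 (replicates 1 to 4 in order, as in all lists of 4 values), with a log2 fold change of -1.24 ± 0.82 (SE, adjusted p = 0.529 by edgeR). Its values overlapped between the groups. Of the 12 neuron markers, Elavl3 (an RNA-binding protein of neurons) had 131 to 209 counts in every library, but the median marker lay at only 1.00 to 1.75 times the background in the WT libraries (Emb knockdown: 1.81 to 2.35 times). Background here means the counts per exonic kilobase that 1505 odorant, pheromone and trace amine receptor genes had in that library. The 10 macrophage markers summed to 1528 to 4055 CPM (counts scaled to a common library size with TMM factors) in WT and 4258 to 6821 in Emb knockdown, and their part in the results on the members was not tested. By the same measure the 12 neuron markers summed to 268 to 454 CPM in WT and 227 to 524 in Emb knockdown. No macrophage marker was at 0 in every library of a group. The 6 fibroblast markers summed to 72.0 to 216 CPM in WT and 256 to 497 in Emb knockdown, without overlap. Of the 6 glial markers 5 were tested, 4 higher and 1 lower in Emb knockdown, with a median log2 fold change of 1.08. Entpd2, an enzyme that breaks down extracellular ATP, had 0 to 47.6 CPM in WT and 20.05 to 949 in Emb knockdown (3.97 ± 1.47 on the log2 scale). The calcium-binding protein S100b had 0 to 8.37 and 0 to 102 (3.72 ± 1.36). These 2 were picked after the values were seen, as the only tested glial markers with an unadjusted p under 0.05 by edgeR. They do not stand for the whole list, in which no marker passed the adjusted p. The part of fibroblast and glial markers in the results on the members was not tested.

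The members were counted sparsely. Summed over all 90, they had 965, 1174, 1155 and 637 counts in the WT libraries and 6527, 6355, 4852 and 2061 in the Emb knockdown libraries. As a share of counts outside ribosomal RNA this was 0.106% to 0.156% in WT and 0.155% to 0.427% in Emb knockdown. Emb knockdown replicates 1 to 3 lay above all WT libraries, and Emb knockdown replicate 4 lay just under the highest of them. Between 59 and 76 members had a count in each WT library and between 75 and 82 in each Emb knockdown library. With every library thinned to 598214 counts outside ribosomal RNA, the numbers were 59 to 73 and 68 to 76. Only 24 members had a count in every library, and 7 had at least 10.

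Set against the receptor-gene background, most members lay low. The median member stood at 1.496 ± 0.383 times this level over the WT libraries and 2.95 ± 1.07 times over the Emb knockdown libraries (SD, n = 4 each), and the median coding gene at 0.930 ± 0.192 and 1.57 ± 0.14 times. The genes counted more deeply per kilobase were few. Atp5a1, Atp5o and Ndufa6 exceeded 5 times the background in all 4 WT libraries. In Emb knockdown Atp5a1, Atp5c1, Ndufa1, Ndufa4, Ndufa6 and Cox7a2l did so in all 4. Ndufa1 exceeded 5 times the background there on only 14, 4, 9 and 10 counts over 419 exonic bases. Between 15 and 24 members exceeded it in a WT library and between 26 and 43 in an Emb knockdown library, which was 22.5% ± 4.19 and 35% ± 8.73 of the members against 9.78% ± 1.46 and 16.8% ± 3.78 of coding genes.

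**Figure D1:**
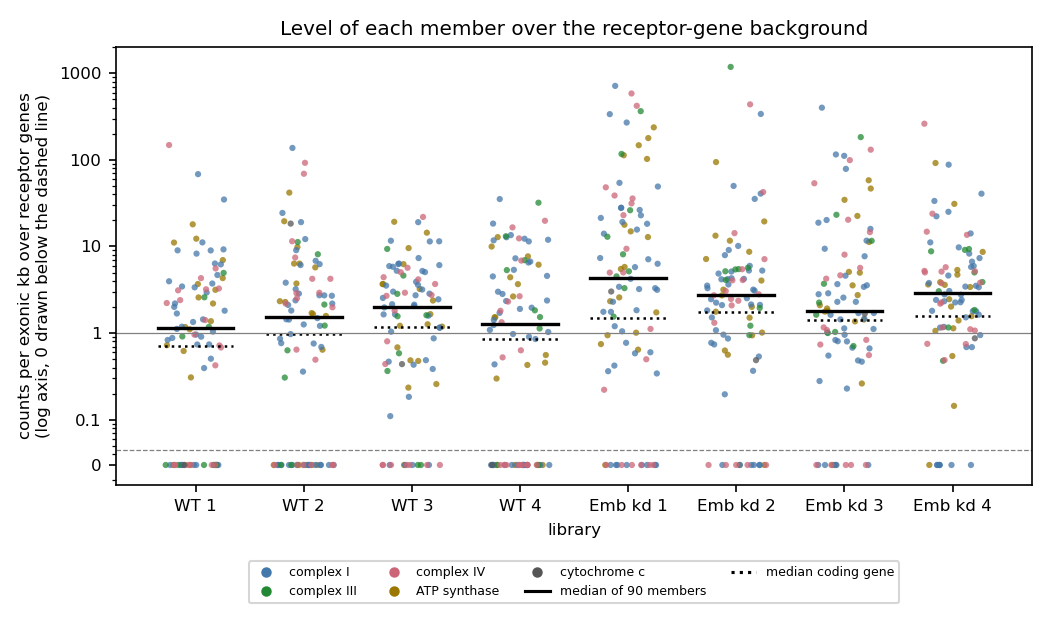
Counts per exonic kilobase of each of the 90 members as a multiple of the receptor genes of that library (log vertical axis, members with no count drawn at 0 below the dashed line), for the 8 libraries; colours give the complex, solid bars the median member and dotted bars the median coding gene. The median member lies between 1.15 and 2.02 in WT and between 1.78 and 4.37 in Emb knockdown, with many members at 0 in each library.

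No member was called different between the genotypes by edgeR's quasi-likelihood test. Of the 90 members 31 had enough counts to be tested (16 of complex I, 2 of complex III, 5 of complex IV, 8 of ATP synthase), and 0 of them passed a Benjamini-Hochberg adjusted p of 0.05. Of all 11353 genes tested 0 passed (0.0%), with 1508 at an unadjusted p under 0.05. At an unadjusted p under 0.05 there were 4 members, Cox7a2l, Atp5a1, Cox4i1 and Ndufa11, all higher in Emb knockdown, and no member was lower; of all tested genes 8.64% were higher and 4.64% lower at that level. The members' share, 12.9%, was near the 13.3% of all tested genes. Non-overlapping groups were found for 2 tested members, Cox7a2l and Atp5a1, both higher, and for none lower, against 4.03% and 4.25% of all tested genes. DESeq2's Wald test called those same 4 members, while 8 members had no adjusted p, and it called 683 genes in all (6.02%). Limma voom called none, with 2 members and 1178 genes at an unadjusted p under 0.05. In sorted pools, fewer cells of a type and less RNA per cell cannot be told apart.

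The tested members had a median log2 fold change of 0.79, against 0.04 for all tested genes, and 20 of 31 were higher in Emb knockdown. This median rested on single libraries: leaving out Emb knockdown replicate 3 gave 0.13 and leaving out Emb knockdown replicate 1 gave 0.18. With library totals alone in place of TMM factors, the median of all genes moved to -0.67 and that of the members to -0.20, and 2 members were higher and 5 lower at an unadjusted p under 0.05. Scaling on the receptor genes gave medians of 0.64 and 1.13, with 8 members higher and none lower, against 18.1% and 1.24% of all tested genes. The members' median thus stood above that of all genes under each of these scalings, while its sign did not hold.

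**Figure D2:**
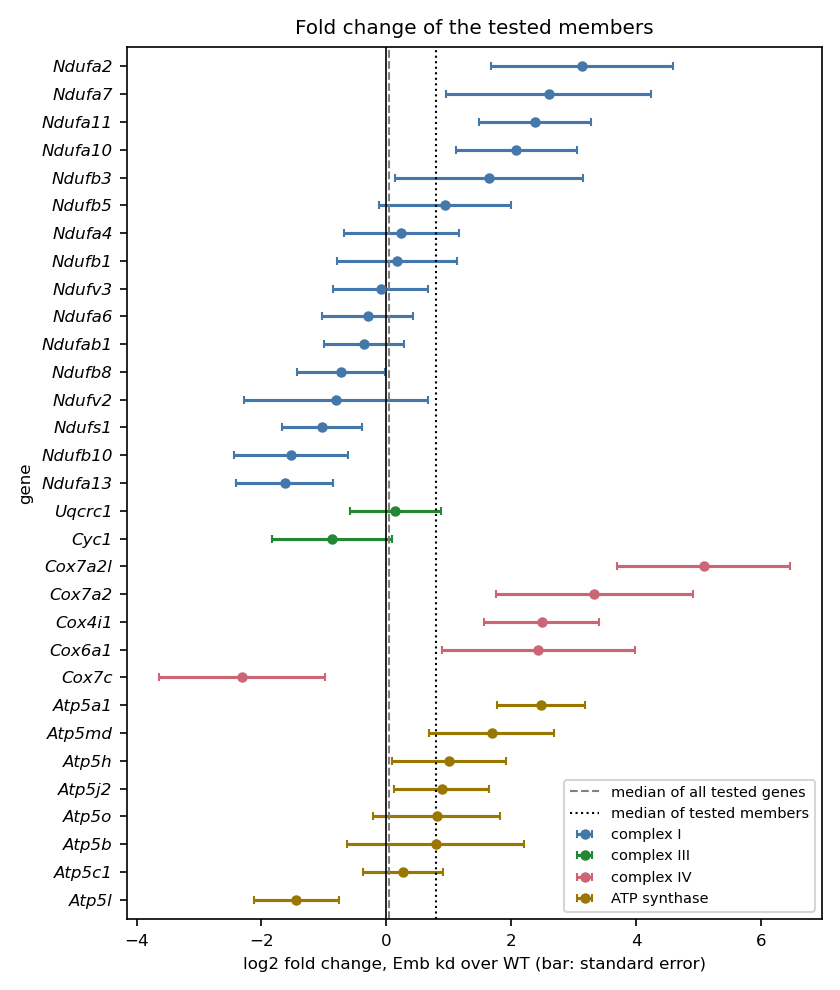
Log2 fold change of Emb knockdown over WT for the 31 tested members (points, with standard errors as bars), grouped by complex; dashed and dotted lines mark the medians of all tested genes (0.04) and of the tested members (0.79). Complex I spreads to both sides, from -1.63 to 3.13, while 7 of 8 ATP synthase members (5 with library totals alone) and 4 of 5 complex IV members lie above 0.

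Complex I members lay on both sides, 8 of 16 tested higher and 8 lower, with a median log2 fold change of 0.04 (-0.60, with 6 higher, under library totals alone and 0.67, with 11 higher, when scaled on the receptor genes). Ndufa11 (ENSMUSG00000002379, GRCm38 chromosome 17, 56717767 to 56722141), an accessory subunit of the membrane arm, had 16.7, 2.30, 4.56 and 2.81 CPM in WT and 49.97, 37.1, 3.78 and 47.0 in Emb knockdown. Emb knockdown replicates 1, 2 and 4 were higher than every WT library, and Emb knockdown replicate 3 lay among the WT values. The log2 fold change was 2.38 ± 0.90 (SE, adjusted p = 0.320 by edgeR; 0.0499 by DESeq2). It was 2.17 without WT replicate 2 and 3.42 without WT replicate 1. Exons of Vmac lie over those of Ndufa11 on the opposite strand, and without a stated strand setting their reads cannot be told apart. Ndufa10, another accessory subunit, had 0 to 10.3 CPM in WT and 19.99, 19.1, 77.3 and 6.27 in Emb knockdown, with a log2 fold change of 2.08 ± 0.97 (adjusted p = 0.378 by edgeR), and 1.05 without Emb knockdown replicate 3. Its groups overlapped through Emb knockdown replicate 4.

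Other complex I members owed their values to 1 or 2 libraries. Ndufa2, with 0.761 to 9.84 CPM in WT, had 163 and 53.3 CPM in Emb knockdown replicates 1 and 4 but 0 and 3.24 in replicates 2 and 3 (3.13 ± 1.45 on the log2 scale, adjusted p = 0.378 by edgeR). Exons of Tmco6 overlap Ndufa2 on the opposite strand. Ndufb3, among the members highest per kilobase, had 154 CPM in WT replicate 2 and 460 and 109 CPM in Emb knockdown replicates 1 and 3. It had at most 21.1 CPM in each of the other 5 libraries, and its log2 fold change of 1.64 ± 1.51 became -0.26 without Emb knockdown replicate 1. Ndufa3 was not tested, having 1, 1, 1 and 5 counts in WT and 0, 627, 934 and 10 in Emb knockdown, and exons of Tfpt overlap it on the opposite strand. High and near-absent counts of these 3 genes thus stood side by side within Emb knockdown.

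Ndufa13, which is also known as the cell-death regulator GRIM-19, had the lowest log2 fold change of the 16 tested complex I members. It had 3.86, 11.5, 36.5 and 22.5 CPM in WT and 3.33, 3.71, 11.9 and 5.01 in Emb knockdown, with a log2 fold change of -1.63 ± 0.78 (adjusted p = 0.389 by edgeR) that moved to -1.004 when WT replicate 3 was left out and to -2.21 when Emb knockdown replicate 3 was. The Emb knockdown values lay within the WT range except for 2 libraries just under it. Exons of Tssk6 overlap Ndufa13 on the opposite strand. Of the core subunits, Ndufs1, the large iron-sulphur subunit that receives electrons, had a log2 fold change of -1.04 ± 0.64, and Ndufv2, another electron-carrying subunit, had -0.80 ± 1.47, neither at an unadjusted p under 0.05. Ndufa6 and Ndufa4, which are not core subunits, had values of -0.30 ± 0.73 and 0.24 ± 0.93. Ndufa4 is grouped by its symbol, although its protein is now known to belong to complex IV.

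**Figure D3:**
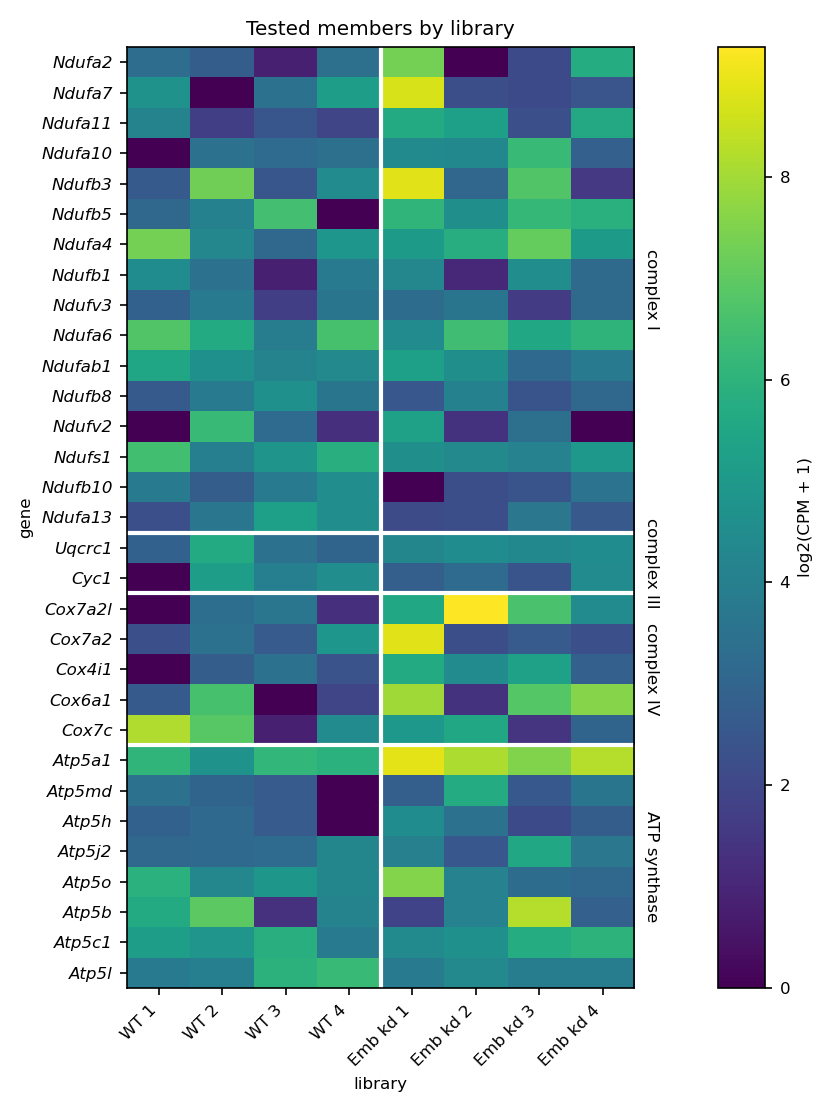
Level of the 31 tested members, as log2(CPM + 1), in the 8 libraries (columns), with members grouped by complex and ordered within it by fold change. Atp5a1 is bright in all 4 Emb knockdown libraries, whereas Cox7a2, Ndufa7 and Ndufb3 are brightest in Emb knockdown replicate 1 and the single bright cell of Cox7a2l is Emb knockdown replicate 2.

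Complex III was barely covered, with 2 of 9 members tested and neither at an unadjusted p under 0.05. Uqcrc1, a core subunit that faces the matrix, had 6.43, 49.4, 9.89 and 7.03 CPM in WT and 18.0, 21.7, 18.9 and 21.9 in Emb knockdown (0.14 ± 0.73 on the log2 scale, adjusted p = 0.961 by edgeR). The Emb knockdown values were close together, and WT replicate 2 lay above all of them while the other 3 WT libraries lay below. Without WT replicate 2 the log2 fold change was 1.41. Cyc1, the cytochrome c1 subunit, had 0 to 35.6 CPM in WT and 4.32 to 21.3 in Emb knockdown, with a log2 fold change of -0.87 ± 0.96 (-0.26 when WT replicate 2 was left out, and -1.52 when Emb knockdown replicate 4 was). The median of these 2 members was -0.36, against 2.09 over all 9 members fitted without the filter on low counts, of which 8 had higher values.

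Several small complex III members were counted almost wholly in 1 library and were not tested. Uqcrh, the hinge protein, had 0, 1, 4 and 0 counts in WT and 41, 2652, 2 and 1 in Emb knockdown, so that 97.7% of its CPM lay in Emb knockdown replicate 2. Uqcr11 had 296 of its 332 counts in Emb knockdown replicate 1, and Uqcr10 had 244 of 293 in Emb knockdown replicate 3. Uqcrfs1, the Rieske iron-sulphur protein, had 0, 0, 1 and 0 counts in WT and 202, 3, 7 and 7 in Emb knockdown, a ratio of 118 per normalised library size with an exact 95% interval of 20.9 to 4670 that covers counting error only. Its groups did not overlap, but 92.7% of its CPM lay in 1 library. Together the 9 members had 25.7 to 94.3 CPM in WT and 73.9 to 1461 in Emb knockdown. Without the highest member of each library, the sums were 10.3 to 60.4 and 52.0 to 217.

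Cytochrome c was near absent outside 1 library. Cycs had 0, 80, 3 and 0 counts in WT and 13, 3, 13 and 5 in Emb knockdown, and was not tested. WT replicate 2 held 80.2% of its CPM. A stretch at least 95% identical over 100 bases or more was found in 51 other genes, 3 of them annotated as pseudogenes, so reads could have been split among them. The 20 of these genes in the table had 4430 counts, against 117 for Cycs.

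Complex IV, with 5 of 19 members tested, had a median log2 fold change of 2.49, with 4 of 5 higher (1.76 with library totals alone). It also held the tested member with the highest log2 fold change. Fitted without the filter on low counts, the 19 members had a median of 1.41, with 12 higher. Cox7a2l (ENSMUSG00000024248, GRCm38 chromosome 17, 83501918 to 83517330), which is known to join complex IV to complex III in supercomplexes, had 0, 9.20, 11.4 and 1.41 CPM in WT and 44.6, 620, 97.8 and 21.3 in Emb knockdown. Every Emb knockdown library was higher than every WT library, and Emb knockdown replicate 2 was far above the rest. The log2 fold change was 5.09 ± 1.39 (adjusted p = 0.294 by edgeR; 0.000381 by DESeq2), and 3.19 without Emb knockdown replicate 2. Cox4i1 (ENSMUSG00000031818, chromosome 8, 120668222 to 120674207), the widely used form of regulatory subunit 4, had 0, 5.75, 9.89 and 4.22 CPM in WT and 50.6, 21.2, 38.9 and 6.27 in Emb knockdown. Emb knockdown replicate 4 was below WT replicate 3, and the log2 fold change was 2.49 ± 0.92 (adjusted p = 0.314 by edgeR; 0.0387 by DESeq2), and 3.16 without WT replicate 3. Exons of Emc8 overlap it on the opposite strand.

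Other complex IV members varied widely within each group. Cox6a1, the general form of subunit 6a, had 5.15, 95.4, 0 and 2.81 CPM in WT and 249, 1.59, 113 and 194 in Emb knockdown (2.43 ± 1.55 on the log2 scale, adjusted p = 0.515 by edgeR). Without WT replicate 2, the highest WT library, the log2 fold change was 5.83, and without Emb knockdown replicate 1 it was 1.97. Emb knockdown replicate 2 was below 3 of the WT libraries. Cox7c was the opposite case, with 286, 115, 0.761 and 21.1 CPM in WT and 30.0, 46.1, 1.62 and 6.89 in Emb knockdown (-2.31 ± 1.33, adjusted p = 0.472 by edgeR), with values of -1.02 without WT replicate 1 and -2.97 without Emb knockdown replicate 2. Its 4 near-identical processed pseudogenes had 581 counts in all, more than the 484 of Cox7c. Cox7a2 had 465 CPM in Emb knockdown replicate 1 and 3.71 to 28.1 in the other 7 libraries.

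Isoforms known from muscle, testis or low oxygen were at low counts, but so were many other members. Cox6b1 had 3 counts in WT and 27 in Emb knockdown, Ndufs5 had 3 and 9, and Uqcrc2 had 9 and 25, while Cox4i1 had 21 and 198. Low counts were thus not particular to these isoforms. Over 4 WT and 4 Emb knockdown libraries respectively, Cox4i2 had 10 and 11 counts, Cox6b2 had 13 and 9, Cox7a1 had 3 and 1, and Cox7b2 had 9 and 12. Cox8b and Cox8c had no count in WT and 9 and 4 in Emb knockdown, all in Emb knockdown replicate 4. Ndufa4l2, a gene induced by low oxygen, had 24 counts in each group. Cox6a2, the striated muscle form of subunit 6a, had 21 counts in WT and 165 in Emb knockdown, of which 154 lay in replicate 3. Exons of Itgad, an integrin gene, overlap Cox6a2 on the opposite strand.

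**Figure D4:**
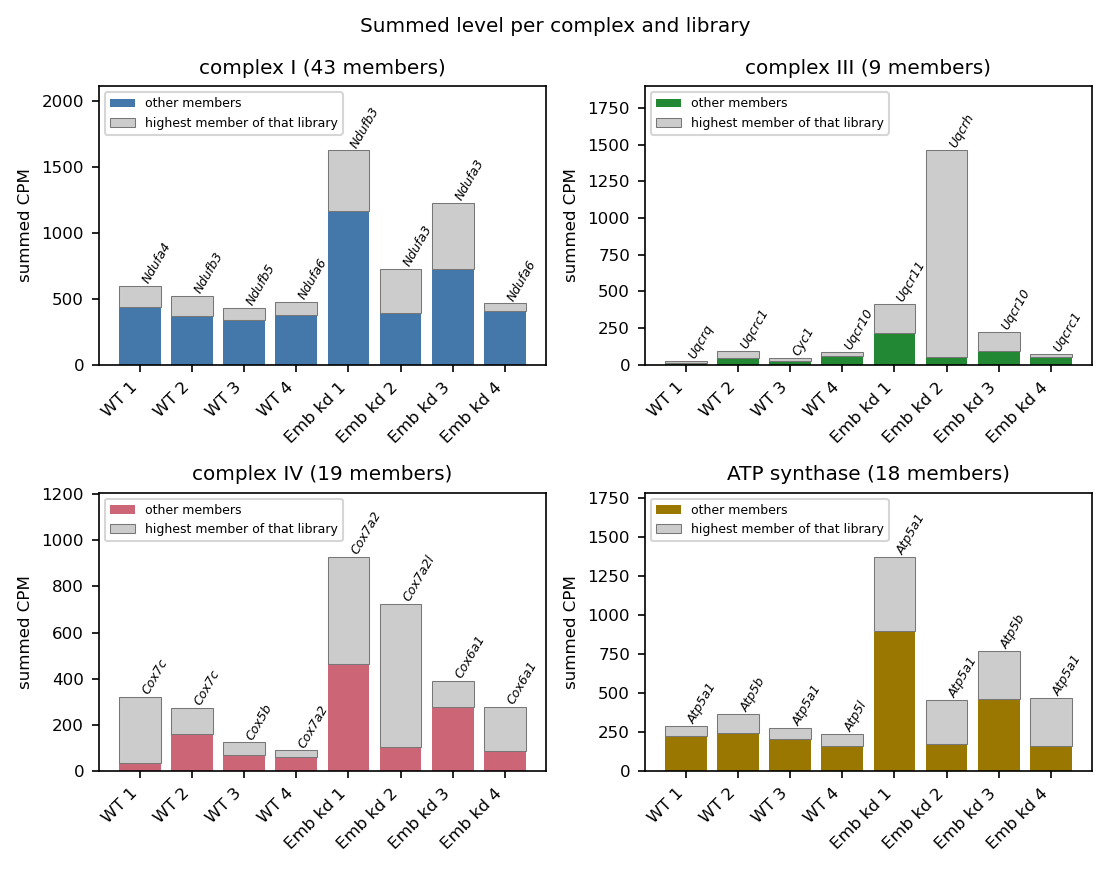
Summed CPM of all members of each complex in the 8 libraries (bars from 0), split into the member that was highest in that library (grey, named above the bar) and all other members (colour). Emb knockdown replicate 1 has the highest sum in complex I, complex IV and ATP synthase, while Uqcrh makes up 96.3% of complex III in Emb knockdown replicate 2.

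ATP synthase had a median log2 fold change of 0.84, with 7 of 8 tested members higher (0.24 and 5 of 8 with library totals alone), and held the other tested member whose groups did not overlap. Atp5a1 (ENSMUSG00000025428, GRCm38 chromosome 18, 77773729 to 77782869), the catalytic-head subunit alpha, had 65.6, 26.4, 69.2 and 60.4 CPM in WT and 472, 284, 180 and 305 in Emb knockdown. All Emb knockdown libraries lay above all WT libraries. The log2 fold change was 2.48 ± 0.71 (adjusted p = 0.295 by edgeR; 0.000825 by DESeq2) and stayed between 2.22 and 2.68 when each library was left out in turn. Relative to the receptor genes it stood at 5.74 to 14.4 times in the WT libraries, and in the Emb knockdown libraries at 46.7 to 179 times. Exons of Haus1, a subunit of the spindle complex augmin on the opposite strand, overlap Atp5a1 (by 157 bp at the starts), and the split of reads between both cannot be seen in the table.

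The partner subunits of the catalytic head had overlapping groups. Atp5b, subunit beta, had 50.2, 122, 1.52 and 16.9 CPM in WT and 2.66, 16.4, 304 and 6.27 in Emb knockdown (0.79 ± 1.42 on the log2 scale, adjusted p = 0.854 by edgeR). Emb knockdown replicates 1, 2 and 4 were below the WT median and replicate 3 was above all WT libraries. Atp5c1, subunit gamma of the rotating stalk, had 12.6 to 56.3 CPM in WT and 20.7 to 62.7 in Emb knockdown, a log2 fold change of 0.27 ± 0.64. In the membrane part, Atp5l (subunit g) had 12.9, 14.9, 61.6 and 74.5 CPM in WT and 12.7, 19.6, 14.0 and 13.8 in Emb knockdown, with a log2 fold change of -1.44 ± 0.68 (adjusted p = 0.385 by edgeR). The values of WT replicates 3 and 4 stood above the other 6 libraries. Near-identical stretches of Atp5l were found in 10 other genes, with 55 counts against 261 for Atp5l. Exons of Gm30934 overlap Atp5l on the opposite strand. Atp5md had 51.4 CPM in Emb knockdown replicate 2 and 0 to 11.3 elsewhere, and Atp5j2 had 45.9 CPM in Emb knockdown replicate 3 and 4.77 to 18.3 elsewhere. Near-identical stretches of Atp5md were found in 128 other genes. The 94 of them in the deposited counts had 51587 counts, against 154 for Atp5md. Exons of Taf5 overlap Atp5md on the opposite strand.

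The 3 genes that encode the same mature c subunit of the proton ring were all too low to test. Atp5g1 had 22 counts in WT and 79 in Emb knockdown, Atp5g2 had 17 and 6, and Atp5g3 had 4 and 194. Near-identical stretches of Atp5g1 were found in 20 other genes. The 19 of them in the deposited counts had 30916 counts, against 101 for Atp5g1. For Atp5g2 there were 2 such genes, with 69 counts against 23, and for Atp5g3 there were 0. Reads could have been split among such genes. Of the Atp5g3 counts, 172 lay in Emb knockdown replicate 3, and of those of Atp5g1, 57 lay in the same library. Atp5e had 527 of its 661 counts in Emb knockdown replicate 1, and Atp5k had 115 of 157 there.

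The concentration in single libraries was more frequent among the members than among all tested genes. In 11 of the 31 tested members (35.5%) more than 50% of the CPM lay in 1 library, against 10.9% of all tested genes, and the median top share was 36.2% against 29.0%. Tested members had a median exonic length of 1908 bases and all tested genes of 5311 bases, and the part of length in this was not tested. Emb knockdown replicate 1 was the highest library for 25 of the 90 members. Over the 8 libraries the median Spearman correlation between tested members was -0.02 (465 pairs), that within a complex was -0.05 (159 pairs), and that over all pairs of tested genes was 0.00. The members share depth and library composition in each library, and these values are a description.

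When genes with low counts were kept, edgeR called 9 of 89 members, all higher in Emb knockdown, against 1.88% of 48530 genes. They were Atp5d, Atp5g3, Ndufa2, Ndufa3, Uqcr11, Uqcrfs1, Uqcrh, Cox7a2 and Cox7a2l. Each of these 9 had between 59.1% and 97.7% of its CPM in 1 Emb knockdown library. Atp5a1 was not among them (adjusted p = 0.103 by edgeR without the filter).

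Exons and copies also touched the 4 members with an unadjusted p under 0.05. Exons of another gene overlapped Atp5a1, Cox4i1 and Ndufa11, and Cox7a2l shared a near-identical stretch with 1 pseudogene, which had 1 count. Of the 37 members with neither a near-identical stretch in another gene nor overlapping exons, 13 were tested, with a median log2 fold change of 0.24. Of these 13, 0 had an unadjusted p under 0.05, against 13.3% of all tested genes, which were not split in this way. Cox7a2l fell outside this set only through that pseudogene. This split was chosen after the values were seen.

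Other genes of the pathway showed no called change by edgeR in any of 7 lists. In complex II, which feeds electrons from succinate and has 4 subunits, 3 were tested and 2 were higher at an unadjusted p under 0.05. Sdhd, a membrane anchor, had 0, 9.20, 6.85 and 15.5 CPM in WT and 141, 7.95, 8.65 and 114 in Emb knockdown (3.10 ± 1.17 on the log2 scale, adjusted p = 0.320 by edgeR; 0.0317 by DESeq2). Sdha, the flavoprotein, had 2.81 to 24.4 CPM in WT and 113, 7.95, 4.86 and 67.7 in Emb knockdown (2.33 ± 1.06, adjusted p = 0.375 by edgeR). Both were high in Emb knockdown replicates 1 and 4 and within the WT range in replicates 2 and 3, as Ndufa2 was high in the same pair.

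No assembly factor reached an unadjusted p under 0.05. Of 15 assembly factors for complex I, 7 were tested, with a median log2 fold change of -0.44. Of 27 for complexes III and IV 11 were tested, with a median of 0.75, and the copper chaperone Cox17 had 682 of its counts in Emb knockdown replicate 3. Of the 5 genes for assembly and regulation of ATP synthase only Atpaf2, which assists subunit alpha, was tested. It had 3.80 to 10.3 CPM in WT and 11.7 to 21.9 in Emb knockdown, groups that did not overlap (1.31 ± 0.63 on the log2 scale, adjusted p = 0.388 by edgeR).

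The tested regulators had mostly lower values, and the carriers had values on both sides. Of 14 regulators of mitochondrial biogenesis 11 were tested, 2 higher and 9 lower, none at an unadjusted p under 0.05, with a median log2 fold change of -0.33. Ppargc1a, the coactivator PGC-1 alpha, had 34.5 to 56.6 CPM in WT and 15.04 to 58.0 in Emb knockdown (-0.52 ± 0.59). Esrrg, a nuclear receptor that drives respiratory genes, had 8.05 to 25.1 CPM in WT and 5.64 to 7.42 in Emb knockdown, without overlap (-1.19 ± 0.62, adjusted p = 0.426 by edgeR). Of 17 carriers and channels 10 were tested and 1 was lower at an unadjusted p under 0.05: Vdac3, an outer-membrane channel, with 1212 counts in WT replicate 1 and 6 to 28 in each other library.

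The subunits encoded by mitochondrial DNA gave no called difference. Of 13 genes 8 were tested, none at an unadjusted p under 0.05, with a median log2 fold change of 0.22. Their summed CPM was 2586, 853, 975 and 2946 in WT and 3083, 1219, 1334 and 1044 in Emb knockdown, so the groups overlapped. WT replicates 1 and 4 owed much of this to 1 gene, as mt-Cytb had 1476 counts in WT replicate 1 and mt-Nd4 had 1458 in WT replicate 4, against 90 to 396 and 48 to 510 in the other libraries. Divided by the summed CPM of the nuclear members, the level was 1.78 ± 1.17 for WT and 0.597 ± 0.200 for Emb knockdown (SD, n = 4 each). The ratios were 0.632 to 3.29 in WT and 0.362 to 0.809 in Emb knockdown, and they overlapped.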

How the data were processed

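Per the labels, RNA of sorted colon cells from 4 WT and 4 Emb knockdown tubes was amplified with a Smart-seq kit. The authors deposited whole-number counts per gene, not normalised. Per the submitters' processing notes, cutadapt and mm10 were used; the sources used here do not give an aligner, a counting tool, a strand setting or an annotation. Amplified reads carried no molecular identifiers, so they are not independent. Members and lists were chosen with earlier results of these data known.

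All genes were fitted with edgeR 4.0.16 in R 4.3.3 (filterByExpr defaults with a minimum count of 10, TMM, robust quasi-likelihood fit, group only), and p-values were adjusted by Benjamini-Hochberg over 11353 genes. Each SE is the absolute log2 fold change over the root of its F value. DESeq2 1.42.0 and limma 3.58.1 voom were alternatives. The fit was also run on counts simulated from these data's own means, library sizes and fitted dispersions. Because that draw follows the fit's own model, it cannot show how well the model suits these data. Coordinates and exon lengths came from GENCODE M21 (52133 of 55414 identifiers, all 90 members), and copies from blastn 2.17.0 (95% identity over 100 bases). Promoters came from RefSeq.

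Genes named are Emb; per complex the 4 tested members with the smallest p and the 3 highest in counts per kilobase; tested members without overlap; known isoforms; up to 3 per pathway list by p; and up to 2 per list of other cells by level. Others named for counts in 1 library, copies or core roles were chosen after their values were seen. The glial markers Entpd2 and S100b were not named by level. They were named for an unadjusted p under 0.05 by edgeR, after their values were seen. Coa1 and Atp5if1 matched no symbol. The summed level of the glial markers is not reported here.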

Additional observations from a re-analysis of the deposited data

Results flagged for a closer look

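In 23 of 92 groups of 4 libraries examined, 1 library stood apart from the other 3, with a gap above 0.829 of the group's range. For normally distributed values chance gives about 1 in 20, but over all tested genes 12.7% of groups stood apart in this way, and over the tested members 13 of 62 (21.0%). Members named for the highest counts per kilobase include those carried by 1 library, so the share among them is no measure of the whole set. The groups were 13 of members in Emb knockdown, 9 of members in WT and 1 of a summed level. In Emb knockdown replicate 1 Cox7a2 stood at 465 CPM, Atp5e at 351, Uqcr11 at 197 and Atp5k at 76.6, and the summed mitochondrially encoded subunits at 3083. In Emb knockdown replicate 2 Uqcrh stood at 1406 CPM, Cox7a2l at 620 and Atp5md at 51.4. In Emb knockdown replicate 3 Uqcr10 stood at 132 CPM, Atp5g3 at 92.9 and Cox6a2 at 83.2. The few counts of Cox8b, Cox8c and Cox7a1 in Emb knockdown lay in replicate 4, at 5.64, 2.51 and 0.627 CPM.

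In WT, replicate 2 stood apart for Ndufb3 (154 CPM), Atp5e (108), Cox6a1 (95.4), Cycs (92.0) and Uqcrc1 (49.4). Replicate 4 did so for Atp5j2 (18.3 CPM), Uqcr11 (12.6) and Ndufa3 (7.03), and replicate 1 for Ndufa11 (16.7 CPM). Uqcr11 and Atp5e stood apart in both groups. For Atp5a1 no library stood apart in either group.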

How the results depend on the processing

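Of 297 log2 fold changes of the 16 named tested members and Emb under 19 alternatives, 291 kept their direction. A gene that failed the filter under an alternative has no value there: this took out 26 values, of 6 members and Emb. Of the 10 members with a value under every alternative, 8 kept their direction in all of them. The exceptions among these 10 were Uqcrc1 (-0.52 with library totals alone, and -0.069 to 1.41 when each library was left out in turn) and Ndufb3 (-0.26 to 3.93 when each was left out). Of all 16 named tested members 13 never reversed. Cox7a2, which lacked a value under some alternatives, reversed with the replicate block (-0.16). No other call by edgeR's adjusted p was lost, because none was made at the chosen settings; 2 genes, no member among them, passed with library totals alone. Of the 31 tested members, 4 were called by DESeq2, which called 683 genes. It gave 5 members higher and 3 lower at an unadjusted p under 0.05 (25.8% of members against 18.1% of all tested genes). Without the filter on low counts, 9 of 89 members and 910 genes in all were called. At an unadjusted p under 0.05 that fit gave 26 members higher and 3 lower (32.6% against 11.2%). At that level library totals alone gave 2 of 31 higher and 5 lower (22.6% against 18.3% of all tested genes). Scaling to the receptor genes gave 8 of 31 higher and 0 lower (25.8% against 19.4%). Limma voom gave 2 of 31 higher and 0 lower (6.45% against 10.4%). A minimum mean log2 CPM of 3 gave 5 of 29 higher and 1 lower (20.7% against 15.2%). Thinning to equal counts gave 4 of 20 higher and 1 lower (25.0% against 16.4%). Leaving out each library in turn gave 3 to 8 higher, 0 to 2 lower and a median log2 fold change of the tested members of 0.13 to 1.15. Between 27 and 47 members were tested in these fits. Of them 11.1% to 21.4% were at that level, against 10.1% to 14.5% of all tested genes. The median log2 fold change of the tested members was -0.20 with library totals alone and 0.24 for members without copies or overlaps. Of the 13 tested members without copies or overlaps, 0 had an unadjusted p under 0.05, against 13.3% of all tested genes. Same-numbered libraries did not deviate together (correlations of 0.011 to 0.034), so the numbers were not used as pairs. With the replicate block the median of the tested members was 0.24. There 3 of 31 members were higher at an unadjusted p under 0.05 (9.68% against 8.09% of all tested genes). Set against the median coding gene in place of the receptor genes, the median member lay at 1.599 in WT and 1.88 in Emb knockdown. Members with under 10 counts in most libraries could not be compared at this depth, and intervals cover counting error only. The cause of these changes was not tested.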
